A study of Mus musculus with 9 samples.

Results

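Genes of skeletal muscle contraction and muscle energy supply were described in 9 subcutaneous mouse tumours of the LLC line. They comprise 40 genes listed by symbol (11 of the thick filament, 9 of the thin filament, 7 of the Z-disc and scaffold, 5 of calcium handling, 7 of energy metabolism and 1 ubiquitin ligase), taken as the rows of the deposited expression table that carry those names. All 40 were found, with 1 row each, among 34745 genes. LLC (Lewis lung carcinoma) is a transplantable mouse lung cancer line, which the labels place with lung adenocarcinoma. The hosts were male wild-type C57BL/6 mice, aged 6 to 8 in a unit the label does not state. Each received 1000000 cells in the right flank and was randomised when tumours were near 100 mm3. The isotype group was given a control antibody (10 mg/kg), the anti-PDL1 group an antibody against the immune checkpoint ligand PDL1 (10 mg/kg), and the BTZ+anti-PDL1 group that antibody with the proteasome inhibitor bortezomib (BTZ, 0.5 mg/kg), all by injection into the abdomen, with 3 tumours each. No group was given BTZ alone, and all groups share the same graft line and host strain. The labels give no muscle sample: the muscle RNA described here was measured in pieces labelled as subcutaneous tumour.

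Skeletal muscle fibres shorten when myosin heavy chains of the thick filament pull on actin of the thin filament, after calcium released through the ryanodine receptor binds troponin. Fast and slow fibres build the same machine from different genes. In mice the heavy chain is Myh4 in fast type IIb fibres, Myh1 in IIx fibres, Myh2 in the more oxidative IIa fibres and Myh7 in slow type I fibres, and the troponins, light chains and calcium pumps have fast and slow forms as well. Thin muscles lie directly under the skin of the mouse flank, and most limb and trunk muscles of the mouse are mainly fast.

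The bases before the start are shown for 4 members. These were taken to stand for the thin filament (Acta1), energy supply (Ckm), fast myosin (Myh4) and slow myosin (Myh7). Below, Acta1, Ckm and Myh4 were highest in the same tumour and Myh7 in another. Sequences are from RefSeq, build GRCm38.p6, 250 bases before the start, 5′ to 3′ on the strand of the gene; capitals mark the motifs searched. These were the E-box CAGCTG (the same on both strands), the MCAT element CATTCC on both strands, TATAAA on the printed strand, and the MEF2 element and the CArG box by name, on both strands.
Acta1, minus strand, chr8:123894776-123895025: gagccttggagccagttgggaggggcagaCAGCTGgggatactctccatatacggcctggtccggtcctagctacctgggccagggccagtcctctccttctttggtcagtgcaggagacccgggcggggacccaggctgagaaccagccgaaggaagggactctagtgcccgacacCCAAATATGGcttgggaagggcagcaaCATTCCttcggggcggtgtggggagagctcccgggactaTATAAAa
Ckm, plus strand, chr7:19410844-19411093: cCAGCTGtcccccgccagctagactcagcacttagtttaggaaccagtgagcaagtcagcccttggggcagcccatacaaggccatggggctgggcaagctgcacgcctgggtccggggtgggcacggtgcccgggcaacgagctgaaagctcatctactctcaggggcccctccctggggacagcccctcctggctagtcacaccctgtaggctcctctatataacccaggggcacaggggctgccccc
Myh4, plus strand, chr11:67237562-67237811: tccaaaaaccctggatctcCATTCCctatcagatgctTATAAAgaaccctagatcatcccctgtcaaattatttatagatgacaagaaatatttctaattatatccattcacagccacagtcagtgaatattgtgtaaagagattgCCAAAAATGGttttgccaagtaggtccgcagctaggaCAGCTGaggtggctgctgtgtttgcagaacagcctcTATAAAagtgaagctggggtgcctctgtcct
Myh7, minus strand, chr14:54994627-54994876: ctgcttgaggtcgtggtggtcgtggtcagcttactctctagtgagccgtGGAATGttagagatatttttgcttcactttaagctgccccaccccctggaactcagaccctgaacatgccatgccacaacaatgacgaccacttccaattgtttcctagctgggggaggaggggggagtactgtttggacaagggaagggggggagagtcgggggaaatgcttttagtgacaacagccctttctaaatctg
The Acta1 window held the E-box at -221 to -216, a CArG box at -73 to -64 (CCAAATATGG), an MCAT element at -46 to -41 and TATAAA at -7 to -2, counted from the start. Myh4 held the same 4 kinds of motif, with its E-box at -67 to -62 and a CArG box at -104 to -95. Ckm held 1 E-box at -249 to -244, and Myh7 held 1 MCAT match on the other strand at -201 to -196. Of the 40 members 32 had such windows, 41 in all because some genes have several starts. The E-box was in 46.3% of these 41 windows and in 13.0% of all 32851 windows of this length; the MCAT element was in 26.8% and 12.6%, TATAAA in 12.2% and 7.59%, the CArG box in 7.32% and 1.47%, and the MEF2 element in 4.88% and 0.508%. Distances are from the RefSeq start, which for Acta1, Myh4 and Myh7 differs from the limits of the deposited gene given below. A match describes these letters only and is no evidence of binding.

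Library totals lay between 18.52 M and 21.51 M counts (M, mega), so raw counts of a gene can be set side by side across tumours. Counts are given below in the order of replicates 1, 2 and 3 of a group. CPM is counts per M counts of the library, scaled by TMM, used for means and SDs, and FPKM is the deposited value per length, used between genes.

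The members together took 3129, 4267 and 83715 counts in the isotype tumours, 35792, 6050 and 10517 in the anti-PDL1 tumours and 29659, 3377 and 3146 in the BTZ+anti-PDL1 tumours. In each group 1 tumour stood far above the others: isotype replicate 3, anti-PDL1 replicate 1 and BTZ+anti-PDL1 replicate 1. As a share of all counts the sum ran from 0.0163% in isotype replicate 1 to 0.446% in isotype replicate 3. In whole tumours, fewer muscle cells and less RNA per muscle cell cannot be told apart. Isotype replicate 1 had 0 counts for 20 of the 40 members, isotype replicate 2 for 14 and BTZ+anti-PDL1 replicate 3 for 15, while anti-PDL1 replicate 1 and BTZ+anti-PDL1 replicate 1 had counts for every member. A count of 0 allows up to 3 counts, which is 0.157 CPM in isotype replicate 1; such limits cover counting error only.

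**Figure D1:**
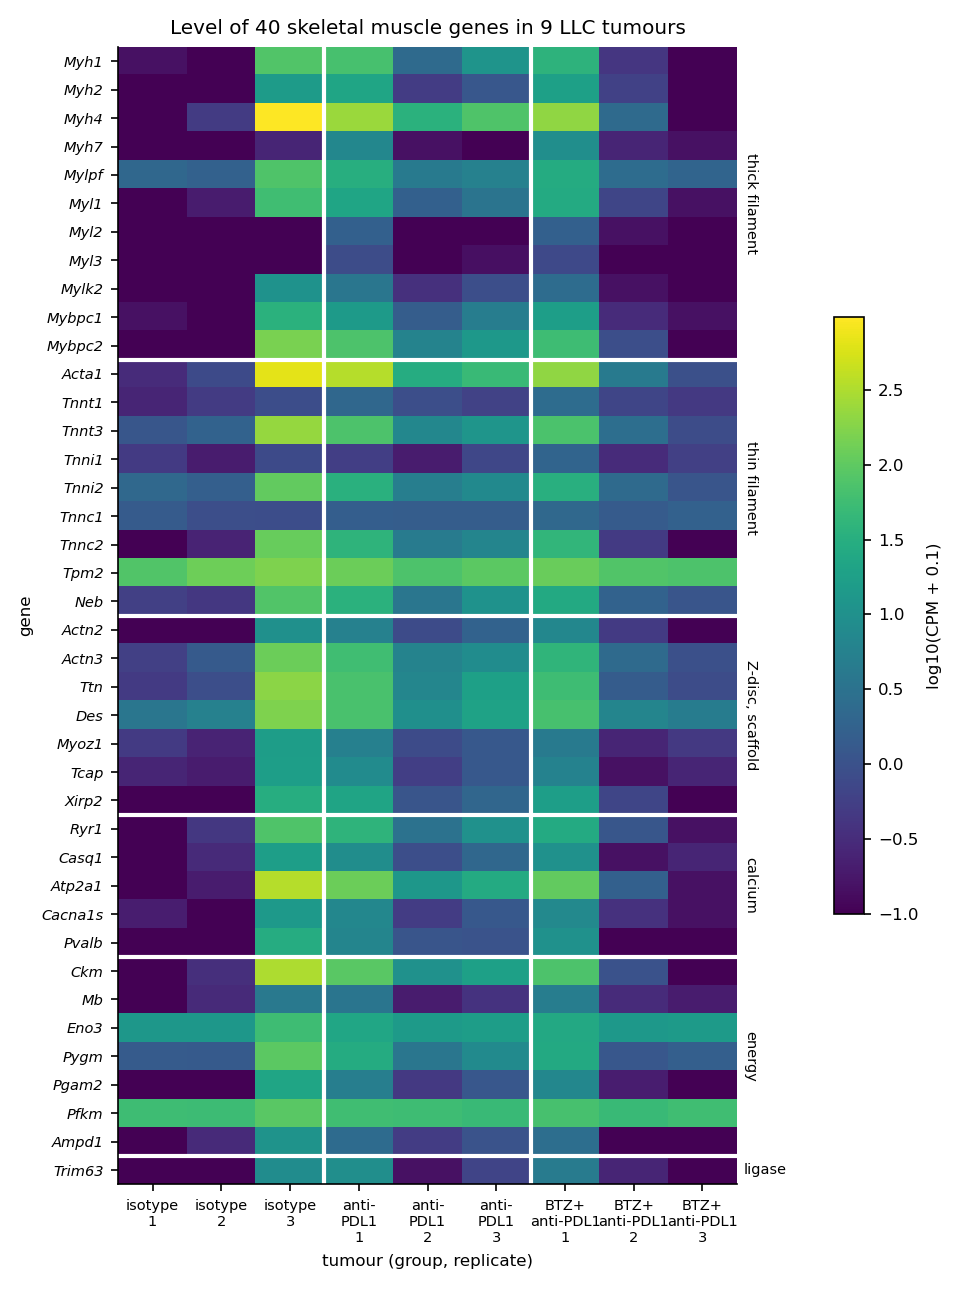
Level of the 40 members (rows, grouped by role) in the 9 tumours (columns), as log10(CPM + 0.1) by colour. Isotype replicate 3, anti-PDL1 replicate 1 and BTZ+anti-PDL1 replicate 1 are bright over most rows, Tpm2, Eno3 and Pfkm are bright in all columns, and Myl2 and Myl3 are dark in isotype replicate 3.

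The spread within groups was of another order than that of other genes. The coefficient of variation (SD over mean of CPM, n = 3) had a median over members of 1.71 in the isotype, 1.12 in the anti-PDL1 and 1.64 in the BTZ+anti-PDL1 group, against 0.117, 0.0914 and 0.1 over all 14506 genes tested. It was above 1 in 32, 29 and 36 of the 40 members, against 1.94%, 0.869% and 1.28% of all genes tested. With n = 3 it cannot exceed 1.732, the value reached when 1 tumour holds all the counts, as for Mybpc2 under isotype. Myl2 and Myl3 have no such value under isotype. Ranked by the SD of log2 CPM over the 9 tumours, 24 members were among the first 50 genes and 31 among the first 100, led by Myh4, Atp2a1, Ckm, Mybpc2 and Acta1 on ranks 1 to 5. Isotype replicate 3 was the highest of its group for 37 members, anti-PDL1 replicate 1 for 39 and BTZ+anti-PDL1 replicate 1 for all 40. The exceptions were Tnnc1, highest in isotype replicate 1, Myl2 and Myl3 with 0 counts in all isotype tumours, and Tnni1, highest in anti-PDL1 replicate 3. Over members the highest tumour of a group stood a median of 85.9-fold above the next in the isotype group, 4.57-fold in the anti-PDL1 group and 26.1-fold in the BTZ+anti-PDL1 group (3 counts standing in for lower values).

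Thick filament genes ranged from absent to abundant. Myh4, the IIb myosin heavy chain (chromosome 11, 67238029 to 67260446, build mm10), had 0, 8 and 18412 counts in the isotype tumours, 4794, 698 and 1635 in the anti-PDL1 tumours and 4241, 43 and 0 in the BTZ+anti-PDL1 tumours. Every group overlapped every other: the lowest and the highest isotype tumour enclosed all tumours treated with the antibody. Myh1, the IIx chain, had 1, 0 and 1534 counts, then 1323, 45 and 248, then 757, 6 and 0. Myh2, the IIa chain, had 0, 0 and 287 counts, then 444, 8 and 24, then 369, 9 and 0, and so was highest in anti-PDL1 replicate 1 rather than in isotype replicate 3. Mybpc2, the fast myosin-binding protein C, had 0, 0 and 2954 counts, then 1502, 117 and 278, then 1095, 15 and 0, which follows Myh4. Mylk2, the kinase of the skeletal regulatory light chain, had at most 205 counts, in isotype replicate 3. Some 100-base stretches of the heavy chain transcripts are shared with related genes (3.85% for Myh4, 9.73% for Myh1, 9.17% for Myh2, and 11.2% for Myh7, with Myh6), so part of their counts may be split between them. Of the other 36 members only Myl1 held shared stretches (9.36%, with a pseudogene).

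Thin filament genes split into those that followed Myh4 and those present everywhere. Acta1, the actin of skeletal fibres (chromosome 8, 123891767 to 123894736), had 4, 14 and 12855 counts under isotype, 7038, 582 and 1064 in the anti-PDL1 and 4197, 81 and 16 in the BTZ+anti-PDL1 tumours. Neb, nebulin, which runs along the actin filament, had 9, 7 and 1543, then 700, 71 and 226, then 516, 32 and 20 counts. Tpm2, a tropomyosin that many contractile and stromal cells also make, had 1536, 2555 and 3122, then 2485, 1486 and 2051, then 2397, 1476 and 1448 counts, a 2.17-fold range in CPM over the 9 tumours. Tpm2 took 1536 of the 1644 thin filament counts of isotype replicate 1. Without it, thick and thin filament members summed to 149, 157 and 49568 counts under isotype, 20428, 2035 and 4392 in the anti-PDL1 and 15911, 390 and 155 in the BTZ+anti-PDL1 tumours.

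Z-disc and calcium handling genes followed the same tumours. Ttn, titin, the spring of the sarcomere, had 7, 16 and 3772, then 1373, 132 and 396, then 1106, 25 and 14 counts. Des, desmin, the intermediate filament of all muscle types, did not fall under 69 counts and reached 3073 in isotype replicate 3. Atp2a1, the calcium pump of fast fibres, had 0, 2 and 6527, then 2491, 250 and 587, then 2116, 29 and 1 counts. Ryr1, the calcium release channel, had 0, 7 and 1485, then 771, 61 and 218, then 546, 20 and 1. The remaining 3 calcium genes were the release partner Cacna1s, the calcium store protein Casq1 and the calcium buffer Pvalb, whose highest counts were 263, 320 and 567, all in isotype replicate 3. Summed over the 5 calcium genes the counts were 2, 13 and 9162, then 3710, 355 and 893, then 3220, 55 and 6, the widest range of the roles with several genes.

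Energy genes divided in a similar way. Ckm, the creatine kinase of muscle that buffers ATP (chromosome 7, 19411094 to 19421583), had 0, 5 and 5863, then 1866, 205 and 393, then 1467, 17 and 0 counts. Pygm, muscle glycogen phosphorylase, had 25, 25 and 1809, then 558, 70 and 168, then 528, 21 and 29 counts. Pgam2 and Ampd1, a glycolytic mutase and an AMP deaminase of muscle, reached 419 and 214 counts in isotype replicate 3 and were at 0 in 3 tumours each. Pfkm, a phosphofructokinase (chromosome 15, 98092589 to 98132447), had 1076, 1092 and 1729, then 1169, 1100 and 1081, then 1351, 950 and 1097 counts, a 1.78-fold range in CPM. Eno3, the enolase of muscle, had 246, 254 and 1046, then 461, 286 and 354, then 496, 248 and 279 counts, a 4.35-fold range. Pfkm and Eno3 were therefore present at 246 counts or more in tumours without Ckm.

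In all, 9 members had at least 10 counts in every tumour: Mylpf, Tnnt3, Tnni2, Tnnc1, Tpm2, Des, Eno3, Pygm and Pfkm. Isotype replicate 1, with 0 counts of Ckm, Myh4 and Atp2a1, still had 39 counts of Mylpf, 40 of Tnni2, 20 of Tnnt3 and 69 of Des. It also had 9 counts of Actn3, 9 of Neb, 7 each of Ttn and Myoz1, 4 of Acta1 and 1 of Myh1, so not all fast fibre genes were at 0 there. At the other end, 23 members had 0 counts in at least 1 tumour.

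Trim63, the ubiquitin ligase MuRF1 that tags sarcomere proteins for the proteasome in wasting muscle, had 0, 0 and 163 counts under isotype, 183, 1 and 12 in the anti-PDL1 and 89, 3 and 0 in the BTZ+anti-PDL1 tumours. Its highest value was in anti-PDL1 replicate 1, which had fewer counts of Ckm than isotype replicate 3. Per 100 Ckm counts isotype replicate 3 had 2.78, anti-PDL1 replicate 1 had 9.81 and BTZ+anti-PDL1 replicate 1 had 6.07. With 1 tumour of each group at such a level, these ratios compare 3 tumours and not the treatments.

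**Figure D2:**
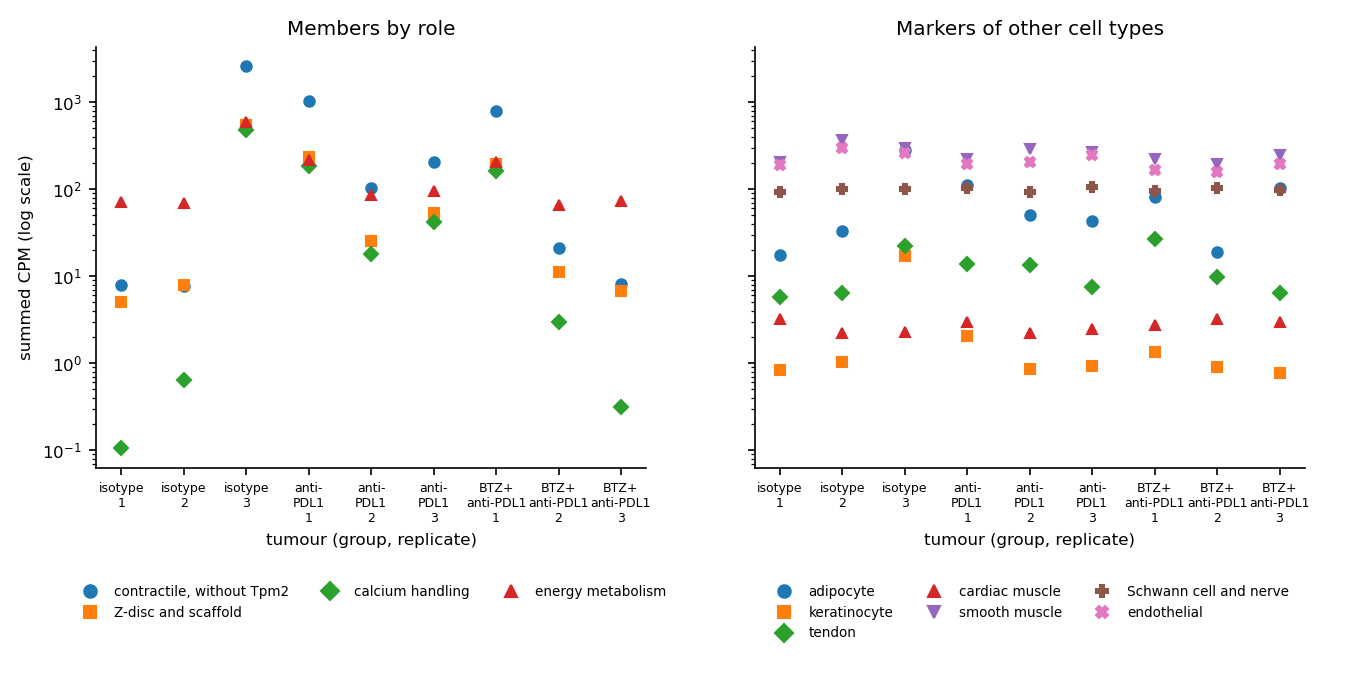
Summed CPM (log scale) in each tumour, for members by role (left) and for fixed marker lists of other cell types (right). Contractile and calcium genes differ by orders of magnitude between tumours of 1 group, energy genes level off near 70 CPM because of Pfkm and Eno3, and adipocyte markers are high in isotype replicate 3 and also in BTZ+anti-PDL1 replicate 3.

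The fast forms were above the slow ones in most pairs of the 5 tumours with the highest member sums, and fewer pairs could be read in the others. For 10 pairs of a fast and a slow gene of the same protein, FPKM of the fast form was above that of the slow form in 57 of 67 cases with at least 30 counts in the pair. It was above in 10 of 10 pairs in isotype replicate 3, in 9 of 10 in each anti-PDL1 tumour, and again in 9 of 10 in the first BTZ+anti-PDL1 tumour. In the tumours with fewer pairs to read it was above in 2 of 3 (isotype replicate 1), 3 of 4 (isotype replicate 2), 5 of 7 (BTZ+anti-PDL1 replicate 2) and 1 of 3 (BTZ+anti-PDL1 replicate 3). In isotype replicates 1 and 2 and BTZ+anti-PDL1 replicate 3 the pairs with fast above slow were all of Mylpf, Tnni2 or Tnnt3. These genes had at least 10 counts in every tumour, those without Ckm included. Whether such cases reflect fast fibres was not tested. A pair could reach 30 counts through its fast gene alone, as Mylpf did with Myl2 at 0. The limit thus in part favours fast above slow. It left out troponin C in isotype replicates 1 and 2, with 0 and 3 counts of Tnnc2 and 25 and 16 of Tnnc1. The cases share tumours, and the tally is a description only. Of the 10 exceptions 8 were the calcium pump, where Atp2a2 was above Atp2a1 in every tumour but isotype replicate 3. The other 2 were troponin C in BTZ+anti-PDL1 replicate 2, with 0.472 FPKM of the fast Tnnc2 and 0.868 of the slow Tnnc1, and in BTZ+anti-PDL1 replicate 3, with Tnnc2 listed at 0 and Tnnc1 at 1.08 FPKM. Atp2a2 had 6988 to 8847 counts in all 9 tumours, those without Ckm included, and many other cell types are known to make it. In anti-PDL1 replicate 1 troponin C was at 48.5 FPKM for the fast Tnnc2 and 0.971 FPKM for the slow Tnnc1, and troponin T at 27.1 FPKM for the fast Tnnt3 and 0.58 FPKM for the slow Tnnt1.

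Among the heavy chains, Myh4 dominated in every tumour that could be read. Of the summed FPKM of Myh4, Myh1, Myh2 and Myh7, Myh4 held 91.9% in isotype replicate 3, 74.3%, 93.6% and 87.1% in the anti-PDL1 tumours, and 79.2% and 74% in BTZ+anti-PDL1 replicates 1 and 2. Myh1 came second with 5.42% to 18.4% in 5 of these tumours; in BTZ+anti-PDL1 replicate 2, which rests on 61 counts, Myh2 was second at 13.2%. The other 3 tumours had 1, 8 and 1 heavy chain counts and were not read.

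**Figure D3:**
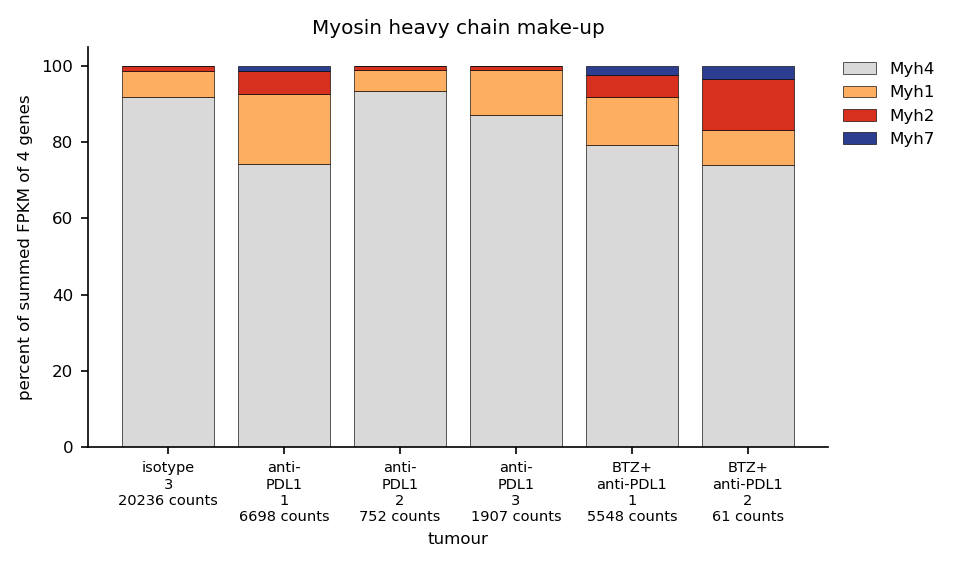
Percent of the summed FPKM of 4 myosin heavy chain genes in the 6 tumours with at least 30 heavy chain counts, with the summed counts under each bar. Myh4 is the largest segment in all 6, and a Myh7 segment can be seen in anti-PDL1 replicate 1, BTZ+anti-PDL1 replicate 1 and BTZ+anti-PDL1 replicate 2.

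The genes paired here as slow forms differed in whether they followed the amount of muscle RNA. Mybpc1, the myosin-binding protein C paired here with the fast Mybpc2, had 1, 0 and 662 counts under isotype. It had 299, 27 and 102 in the anti-PDL1 and 337, 4 and 1 in the BTZ+anti-PDL1 tumours. Actn2, the alpha-actinin paired here with the fast Actn3, had 0, 0 and 190, then 111, 14 and 36, then 139, 7 and 0 counts. Both were highest in isotype replicate 3, as the fast genes were. Whether Mybpc1 and Actn2 mark slow fibres in these tumours was not tested. Myh7, the slow heavy chain (chromosome 14, 54970688 to 54994634), had 0, 0 and 3 counts under isotype, 137, 1 and 0 in the anti-PDL1 and 181, 3 and 1 in the BTZ+anti-PDL1 tumours. Isotype replicate 3, with the most Myh4 of all tumours, thus had 3 counts of Myh7, while the 2 tumours next in Myh4 had 137 and 181. Of the heavy chain counts Myh7 was 0.0148% in isotype replicate 3 (Wilson 95% interval 0.00504% to 0.0436%), 2.04% in anti-PDL1 replicate 1 (1.73% to 2.41%) and 3.26% in BTZ+anti-PDL1 replicate 1 (2.83% to 3.76%). The intervals cover counting error only and compare these libraries, not the conditions. In anti-PDL1 replicate 3, Myh7 was at 0 of 1907 heavy chain counts, which the Wilson interval takes up to 0.201%.

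The slow light chains were split as Myh7 was. Myl2, the slow regulatory light chain, had 0 counts in the 3 isotype tumours, 31 counts each in anti-PDL1 replicate 1 and BTZ+anti-PDL1 replicate 1, and at most 1 in the others. Myl3, the slow essential light chain, had 0 counts in isotype replicate 3 and 15 and 13 counts in those same 2 tumours. Their fast partners were at 1489 (Mylpf) and 1119 (Myl1) counts in isotype replicate 3, above every other tumour. Of the summed Mylpf and Myl2 counts, Myl2 was at most 0.257% in isotype replicate 3 by the upper Wilson bound, against 4.75% observed in anti-PDL1 replicate 1.

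Slow troponins were low in all tumours. Tnnt1 had 3, 8 and 15, then 41, 16 and 11, then 49, 11 and 7 counts, and Tnni1 had 7, 2 and 13, then 9, 2 and 13, then 37, 4 and 9. Tnnc1 had 25, 16 and 15, then 29, 28 and 30, then 43, 24 and 31 counts, so that isotype replicate 3, the tumour with most Ckm, had the fewest. Tumours without Ckm had as many Tnnc1 counts as tumours with it. Mb, myoglobin, the oxygen store of oxidative fibres, had 0, 4 and 77, then 69, 2 and 6, then 95, 4 and 2 counts.

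Of the 40 members 31 had their highest CPM in isotype replicate 3. The other 9 were Myh2, Myl3 and Trim63 in anti-PDL1 replicate 1, and Myh7, Myl2, Tnnt1, Tnni1, Tnnc1 and Mb in BTZ+anti-PDL1 replicate 1. Apart from Trim63 these are genes of slow or oxidative fibres. The counts per 100 Ckm counts put this on a common scale in the 3 tumours with at least 1000 Ckm counts. There 21 of the other 39 members lay within 2-fold of each other, among them Mylk2 (1.12-fold between the highest and the lowest tumour), Myoz1 (1.12-fold), Ttn (1.17-fold) and Myh4 (1.22-fold). Per 100 Ckm counts isotype replicate 3 had 0.0512 of Myh7, anti-PDL1 replicate 1 had 7.34 and BTZ+anti-PDL1 replicate 1 had 12.3. Myh2 stood at 4.89, 23.8 and 25.2, and Mb at 1.31, 3.7 and 6.48. Xirp2, an actin-binding protein of the fibre's attachment sites, stood at 9.72, 22.9 and 23.5. Each of these 4 was lowest in isotype replicate 3, but so were 33 of the 39 members, fast ones included: Acta1 stood at 219, 377 and 286, Mybpc2 at 50.4, 80.5 and 74.6, Actn3 at 39.3, 62.2 and 54.9, and Tnnt3 at 73, 79.6 and 96.9. A lower value there is thus not particular to slow genes. The members not lowest there were Myh4, Mylk2, Pvalb, Pygm, Pgam2 and Ampd1. Members that do not follow Ckm, such as Tnnc1, Tnni1, Tpm2 and Pfkm, come out low in isotype replicate 3 through the division. That tumour had the most Ckm (5863 counts).

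**Figure D4:**
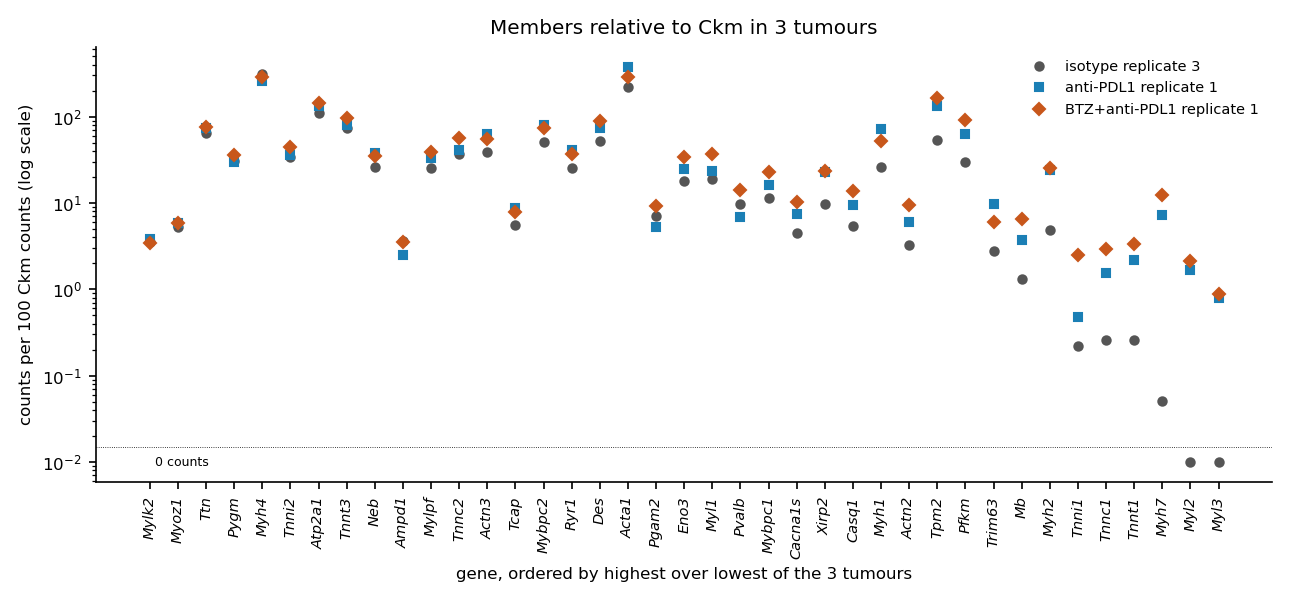
Counts per 100 Ckm counts (log scale) for the other 39 members in the 3 tumours with at least 1000 Ckm counts, ordered by the highest over the lowest value. Most members, on the left, lie together, and the slow genes Tnni1, Tnnc1, Tnnt1, Myh7, Myl2 and Myl3, on the right, are lowest in isotype replicate 3, as 33 of the 39 are, with 0 counts for the last 2. Tnnc1 and Tnni1 do not follow Ckm, so the division itself lowers them where Ckm is highest.

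The design implies 3 comparisons, namely what the antibody changed, what BTZ added to it, and what both changed together, and they share their tumours in pairs. In the anti-PDL1 against the isotype tumours 0 of the 37 members tested were called by edgeR at an adjusted p under 0.05 (lowest adjusted p = 0.776), against 0.0138% of all genes tested. Myh7, Myl2 and Myl3 lay under the filter on low counts. The same count was 0 in the BTZ+anti-PDL1 against the anti-PDL1 tumours (lowest edgeR adjusted p = 0.886, background 0.0138%) and 0 in the BTZ+anti-PDL1 against the isotype tumours (lowest edgeR adjusted p = 0.555, background 0.00689%). At an unadjusted edgeR p under 0.05 there were 0, 0 and 1 members, against 6.35%, 5.82% and 8.6% of all genes, and DESeq2 also called 0 members, with 18, 21 and 18 members given no adjusted p. With group ranges this wide a missed threshold does not show that the groups were alike.

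Acta1 had a mean of 224 ± 388 CPM in the isotype, 144 ± 181 in the anti-PDL1 and 71.7 ± 120 in the BTZ+anti-PDL1 group (± SD over 3 tumours). On the log2 scale it differed by -0.64 ± 2.61 (SE; adjusted p = 0.975 in edgeR) for the antibody alone, -1.0 ± 2.64 (0.971) for BTZ with the antibody against the antibody, and -1.64 ± 2.68 (0.873) for both against isotype. Ckm had means of 102 ± 177, 40.7 ± 45.7 and 24.8 ± 42.1 CPM, with log2 fold changes of -1.33 ± 2.58, -0.71 ± 2.59 and -2.04 ± 2.64 (edgeR adjusted p = 0.94, 0.982 and 0.848). Myh4 had log2 fold changes of -1.45 ± 2.77, -0.71 ± 2.75 and -2.16 ± 2.84 (edgeR adjusted p = 0.937, 0.983 and 0.849). In these 3 genes the SD of a group was as large as its mean or larger, except for Myh4 in the anti-PDL1 group (117 ± 108 CPM). Pfkm, by contrast, had 67 ± 20.3, 55 ± 3.99 and 58.5 ± 8.52 CPM, and its log2 fold changes of -0.28 ± 0.195, 0.09 ± 0.195 and -0.19 ± 0.195 had a standard error near that of other genes (edgeR adjusted p = 0.822, 0.969 and 0.8).

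Over the members tested, 5 had a higher and 32 a lower value with anti-PDL1 than with isotype, with a median log2 fold change of -0.73 against 0.00 over all genes tested. This tally turned with 1 tumour and with the scale: without isotype replicate 3 it was 38 higher and 2 lower, and with limma, which tested 28 members, 19 higher and 9 lower on log2(FPKM + 1) and 25 and 3 on log2(FPKM + 0.1). In the BTZ+anti-PDL1 against the anti-PDL1 tumours 8 were higher and 29 lower (median -0.34), and against isotype 5 were higher and 32 lower (median -1.44). Without anti-PDL1 replicate 1 the first of these became 37 and 0, without BTZ+anti-PDL1 replicate 2 or 3 it became 25 and 15 or 26 and 14, and without isotype replicate 3 the second became 39 and 1. The 5 on the higher side for the antibody alone were Myh2, Tnnc1, Tnni1, Tnnt1 and Trim63. For both agents against isotype they were Mb, Myh2, Tnnc1, Tnni1 and Tnnt1. Thus 4 genes were among both, and the comparisons share the isotype tumours. These 4 are slow or IIa genes. Mybpc1 (log2 fold changes of -0.71 and -1.01) and Actn2 (-0.32 and -0.43), paired here as slow forms, were lower in both. Myh7, Myl2 and Myl3 were not tested. The median standard error of a member was 2.15, 2.17 and 2.19 on the log2 scale, against 0.138 over all genes in each comparison. These medians rested on single tumours. Without isotype replicate 3 the medians against isotype became 5.68 (anti-PDL1) and 5.34 (BTZ+anti-PDL1), and without BTZ+anti-PDL1 replicate 1 those for BTZ+anti-PDL1 became -4.80 against anti-PDL1 and -5.06 against isotype. Without anti-PDL1 replicate 1 the median of anti-PDL1 against isotype was -2.50 and that of BTZ+anti-PDL1 against anti-PDL1 was 0.89. Leaving out either of BTZ+anti-PDL1 replicates 2 and 3 also turned the latter (0.12 and 0.15), and leaving out anti-PDL1 replicate 2 or 3 took it to -0.79 and -0.69. Anti-PDL1 against isotype was -1.29 without either of isotype replicates 1 and 2, and -0.27 and -0.43 without anti-PDL1 replicate 2 or 3. BTZ+anti-PDL1 against isotype was -0.76 and -0.72 without BTZ+anti-PDL1 replicate 2 or 3.

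**Figure D5:**
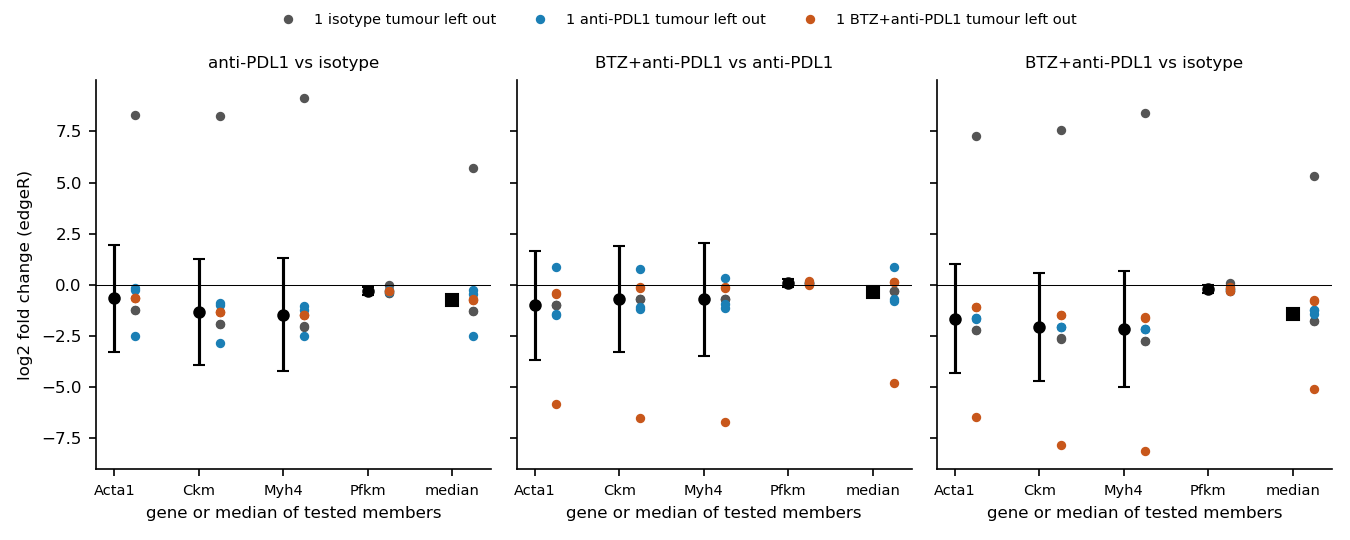
Log2 fold change of 4 genes (black points, bars ± SE) and the median over the tested members (black squares) in the 3 comparisons, with the value after leaving out each tumour beside it, coloured by the group of the tumour left out. Acta1, Ckm and Myh4 move from about -8 to 9 with the tumour left out, and Pfkm stays near 0.

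Values of the groups did not overlap for 1 of 37 members in anti-PDL1 against isotype, where 12.7% of all genes tested did not overlap, for 0 in BTZ+anti-PDL1 against anti-PDL1 (background 14.3%) and for 0 in BTZ+anti-PDL1 against isotype (background 13%). The 1 member was Tnnc1, the slow troponin C, with 15 to 25 counts under isotype and 28 to 30 under anti-PDL1 (log2 fold change 0.56 ± 0.321, edgeR adjusted p = 0.776). Tnnc1 was also the 1 member with an unadjusted edgeR p under 0.05 in BTZ+anti-PDL1 against isotype, with 0.963 ± 0.302 and 1.68 ± 0.439 CPM (log2 fold change 0.80 ± 0.32, edgeR adjusted p = 0.555). It was named after its values were seen.

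Further genes of the same pathways gave 0 calls as well. Of 31 further sarcomere and Z-disc genes 27 were tested, with 6 higher and 21 lower in anti-PDL1 against isotype, 9 and 18 in BTZ+anti-PDL1 against anti-PDL1 and 7 and 20 in BTZ+anti-PDL1 against isotype, and medians of -0.40, -0.29 and -0.72. The 3 with the highest mean, Tpm1, Flnc and Tpm3, which other cells make too, had mean values of 576, 519 and 471 CPM. Of 22 further calcium genes 18 were tested, 5 and 13, 6 and 12, and 5 and 13 in the same order (medians -0.52, -0.11 and -0.55), led by Atp2a2, Asph and Cacna2d1 at 404, 268 and 23.6 CPM. Of 23 further energy genes 18 were tested, 3 and 15, 4 and 14, and 1 and 17 (medians -0.20, -0.18 and -0.27), led by the general glycolytic genes Ldha, Aldoa and Gapdh. These tallies are from the same fit and tumours as those of the members and are no separate evidence.

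Genes of developing or regenerating fibres were in part undetected and in part higher in the tumours rich in muscle RNA, and others did not follow it. Of 16 such genes 5 were tested, with 0 called and medians of -0.04, -0.48 and -0.52; Ncam1, an adhesion molecule of nerve and immature fibres, Mef2c, a muscle and vascular transcription factor, and Myl4, an embryonic light chain, had the highest means at 13.9, 9.75 and 0.919 CPM. Pax7 and Myf5, which mark satellite cells, Chrng, the fetal subunit of the acetylcholine receptor, and Mymx, a myoblast fusion protein, were the 4 of the 16 with 0 counts in all 9 tumours. Some others of the 16 had counts where muscle RNA was high. Myf6, a myogenic factor that mature fibres also make, had 0, 0 and 55 counts under isotype. It had 39, 0 and 2 in the anti-PDL1 and 18, 1 and 0 in the BTZ+anti-PDL1 tumours. Mef2c had 398, 297 and 312 counts in isotype replicate 3, anti-PDL1 replicate 1 and BTZ+anti-PDL1 replicate 1, against 81 to 205 in the other 6 tumours. In the same 3 tumours Cdh15, a cadherin of myoblasts and satellite cells, had 22, 3 and 7 counts. Elsewhere it had at most 6, in anti-PDL1 replicate 2, which is above anti-PDL1 replicate 1. The myogenic factors Myod1 (9, 1 and 3 counts there) and Myog (10, 3 and 5) were at 0 in the other 6 tumours. These genes were picked after their values were seen. Of 12 neuromuscular junction genes 7 were tested, with 4 higher and 3 lower, 7 and 0, and 5 and 2 (medians 0.07, 0.09 and 0.13), led by Agrn, Chrnb1 and Lrp4 at 288, 41.4 and 18 CPM. All 14 muscle wasting genes were tested, with 5 higher and 9 lower, 5 and 9, and 3 and 11 (medians -0.13, -0.06 and -0.14), led by Ctsl, Mt2 and Mt1, which many cells express. The wasting ligase Fbxo32, partner of Trim63 in that list and also named after its values were seen, had 157, 188 and 496, then 387, 180 and 242, then 358, 212 and 231 counts.

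Markers of other tissues moved with the members in part. The 12 adipocyte markers summed to 17.5, 33.3 and 283.5 CPM under isotype, 110.9, 50.7 and 42.8 in the anti-PDL1 and 82.3, 19.2 and 102.1 in the BTZ+anti-PDL1 tumours, with 8 of 12 at 0 counts in isotype replicate 1 and 1 of 12 in isotype replicate 3. They were high in the 3 tumours rich in muscle RNA, and also in BTZ+anti-PDL1 replicate 3, which had 39 counts of Adipoq, 479 of Cfd and 0 of Ckm. The 10 keratinocyte markers summed to 16.9 CPM in isotype replicate 3 and to 0.781 to 2.05 CPM in the other 8 tumours, and Krt5, a keratin of the basal epidermis, had 149 counts there and at most 6 elsewhere. The 8 tendon markers ran from 5.82 to 27.1 CPM. They were highest in BTZ+anti-PDL1 replicate 1 (27.1), isotype replicate 3 (22.2) and anti-PDL1 replicate 1 (13.9), with anti-PDL1 replicate 2 close at 13.6 CPM. Smooth muscle (196.4 to 366 CPM), Schwann cell (92.4 to 107.1 CPM), endothelial (156 to 300.2 CPM) and fibroblast markers (7986 to 12180 CPM) did not separate the tumours in this way. Red blood cell markers summed to 136.4, 250.6 and 269.1 CPM under isotype. They summed to 89.2, 45.3 and 58.1 CPM in the anti-PDL1 and to 196.5, 29.2 and 42.15 CPM in the BTZ+anti-PDL1 tumours. Their highest tumour in each group was the one rich in muscle RNA, with isotype replicate 2 close to isotype replicate 3. The 8 cardiac markers stayed between 2.23 and 3.2 CPM and came mostly from Tnni3 (1.52 to 2.78 CPM), with Nppa at 0 counts in all tumours and Myh6 at 3 counts in isotype replicate 3 and 0 elsewhere. How far fat, skin, tendon or blood in the sampled piece goes with the muscle RNA was not tested.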

How the data were processed

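RNA was sequenced from 9 tumours, 3 in each of 3 groups taken from the labels. The deposited count of each gene is a whole number, not normalised, per the file headers, and the FPKM values were made by the authors. HISAT2 2.0.4, StringTie 1.3.3b and build mm10 stand in the submitters' processing notes without roles; the counting tool, annotation and strand setting are not given in the sources used here. Replicates are separate tumours, per the labels, and p-values measure the spread between them.

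Of 34745 genes, filterByExpr (minimum count 10) kept 14506, which were fitted in edgeR 4.0.16 (R 4.3.3) by its robust quasi-likelihood test, with TMM scaling, 3 group means over all 9 tumours and Benjamini-Hochberg adjustment over all genes tested. The code was tested on simulated data. DESeq2 1.42.0, limma 3.58.1 on log2(FPKM + 1) and log2(FPKM + 0.1), RLE scaling, no filter, the 6 tumours compared, non-robust dispersion, a replicate block and leaving out each tumour were alternatives. Pairs of fast and slow genes needed a summed count of 30. Shared stretches were counted over GENCODE M21 transcripts, as 100-base stretches of the longest coding transcript found in another gene's transcripts. The panel for fold changes was Acta1, Ckm, Myh4, Myh7 and Pfkm, plus any member called, and from each further list the 3 genes of highest mean. The members, lists, pairs and panel were chosen with earlier results of these data known.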

Additional observations from a re-analysis of the deposited data

How the results depend on the processing

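The count of members called was 0 in every comparison under all alternatives run. With only 3 tumours a group, and up to 20 members at 0 counts in a tumour, depth and the spread between tumours limit every fold change here, and Myh7 could not be tested in the filtered fit. For anti-PDL1 against isotype the median of members was -0.73; leaving out 1 tumour at a time it ran from -2.50 to 5.68, Acta1 from -2.50 to 8.28, Ckm from -2.82 to 8.25 and Myh4 from -2.52 to 9.13. The value above 0 came in each case without isotype replicate 3. With limma on log2(FPKM + 1), where each tumour weighs alike on a log scale, this comparison gave 2.63 for Acta1, 1.64 for Ckm and 1.43 for Myh4, and on log2(FPKM + 0.1) 3.79, 3.36 and 3.33; the median of members was 0.11 and 1.07. For BTZ+anti-PDL1 against anti-PDL1 leaving out 1 tumour gave medians of -4.80 to 0.89, and -5.80 to 0.86 for Acta1, -6.48 to 0.78 for Ckm, -6.68 to 0.35 for Myh4 and -0.0275 to 0.182 for Pfkm. For BTZ+anti-PDL1 against isotype it gave medians of -5.06 to 5.34, and -6.44 to 7.28 for Acta1, -7.81 to 7.54 for Ckm, -8.13 to 8.42 for Myh4 and -0.321 to 0.0823 for Pfkm; limma gave 0.084 and 0.756 for Acta1 at the pseudocounts 1 and 0.1. Of the single-gene values under alternatives, 183 kept their sign and 21 turned sign. No member was called in any setting, so the threshold could not separate these values. They include runs that left out a tumour of the group not compared. Of the counts and medians, 109 were classed as unchanged and 4 medians as moved. The counts of members called, 0 throughout, are among the 109. For a median, unchanged meant a move of less than 2.9 on the log2 scale, the SD of the members' mean log2 CPM within groups. Medians that turned sign are therefore among the 109. The cause of these turns was not tested.

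The replicate numbers share only a number: same-numbered tumours correlated from -0.434 to 0.393 over all genes, and a tumour correlated best with its own number in 4 of 18 cases. With the replicate block 0 members were called, the medians were -0.58, -0.81 and -1.47, and Acta1 and Myh4 turned to 0.23 and 0.29 in anti-PDL1 against isotype. Fast above slow held in 57 cases of a pair in a tumour, in 64 when pairs needed 10 counts, in 56 on CPM, and in 47 to 56 with a tumour left out. The number of cases read rises with the lower limit and falls with a tumour left out.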
